A study of Mus musculus with 74 samples.

Results

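Glucose carriers and the enzymes of glycolysis, the pentose phosphate pathway, pyruvate oxidation and the TCA cycle make up a list of 31 genes, chosen by name from textbook pathway membership, with earlier results of these data known. They are 31 of the 55487 genes of the RNA table: 2 carriers (Slc2a1, Slc2a4), 9 genes of upper glycolysis (Hk1, Hk2, Gpi1, Pfkl, Pfkm, Pfkp, Pfkfb3, Aldoa, Tpi1), 7 of lower glycolysis and lactate formation (Gapdh, Pgk1, Pgam1, Eno1, Pkm, Ldha, Ldhb), 3 subunits of pyruvate dehydrogenase (Pdha1, Pdhb, Dlat), 6 TCA cycle genes (Cs, Idh3a, Ogdh, Sucla2, Fh1, Mdh2) and 4 pentose phosphate genes (G6pdx, Pgd, Taldo1, Tkt). Their ribosome-bound RNA was measured in brown adipose tissue (BAT, 17 libraries) and inguinal white adipose tissue (WAT, 18 libraries) of Adiponectin-Cre:NuTRAP mice, in which a Cre driven by the adipocyte gene Adipoq switches on fluorescent tags on nuclei and ribosomes. Libraries were made at Zeitgeber times ZT1, ZT5, ZT9, ZT13, ZT17 and ZT21, 3 libraries for each time in a depot, apart from BAT at ZT17, which has 2. Open chromatin was profiled with ATAC-seq on sorted nuclei, 18 libraries for each depot, from the same line at the same times, and binding of the clock protein BMAL1 by ChIP-seq in 2 libraries of minced inguinal WAT, taken from C57BL6J mice at ZT4. The ChIP therefore covers the whole depot, although its label names white adipocytes. The labels give no age, sex, diet or light schedule. By the common convention that lights go off at ZT12, the last 3 of these times count here as dark. The labels do not say whether replicates are separate animals, so every p-value here measures the spread between libraries, which may be technical.

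Glucose enters fat cells through SLC2A1, and through SLC2A4 when insulin brings that carrier to the surface. Hexokinase traps it as glucose 6-phosphate, from which glycolysis runs to pyruvate, while the pentose phosphate pathway yields ribose and NADPH, the reducing power that fatty acid synthesis spends. Pyruvate becomes lactate, or acetyl-CoA by pyruvate dehydrogenase; the TCA cycle then burns that acetyl-CoA or exports it as citrate for lipid synthesis. Brown adipocytes are rich in mitochondria and oxidise fuel to make heat. White adipocytes mainly store triglyceride and make glycerol 3-phosphate and NADPH from glucose. BMAL1 binds, with CLOCK, to the E-box CACGTG.

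The promoters of 5 genes are shown because they carry the results on BMAL1 and on time of day: Ldha, Pfkfb3 and Ogdh hold a CACGTG inside a BMAL1 peak, and Tkt and Taldo1 had the largest daily ranges in WAT and hold none in these windows. Each window runs from 250 bases before to 50 after a RefSeq start site, 5′ to 3′ on the gene's own strand, on GRCm38.p6 (mm10). They are Ldha at chr7:46845554-46845853 (plus strand), Pfkfb3 at chr2:11502041-11502340 (minus strand), Ogdh at chr11:6291920-6292219 (plus strand), Tkt at chr14:30548881-30549180 (plus strand) and Taldo1 at chr7:141391910-141392209 (plus strand). Capitals mark CACGTG, which reads the same on both strands.
Ldha: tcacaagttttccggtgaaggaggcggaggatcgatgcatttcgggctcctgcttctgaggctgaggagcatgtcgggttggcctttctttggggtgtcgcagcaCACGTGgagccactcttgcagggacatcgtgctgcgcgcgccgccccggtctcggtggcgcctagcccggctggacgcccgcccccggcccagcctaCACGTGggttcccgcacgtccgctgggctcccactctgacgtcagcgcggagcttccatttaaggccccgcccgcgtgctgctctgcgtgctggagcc
Pfkfb3: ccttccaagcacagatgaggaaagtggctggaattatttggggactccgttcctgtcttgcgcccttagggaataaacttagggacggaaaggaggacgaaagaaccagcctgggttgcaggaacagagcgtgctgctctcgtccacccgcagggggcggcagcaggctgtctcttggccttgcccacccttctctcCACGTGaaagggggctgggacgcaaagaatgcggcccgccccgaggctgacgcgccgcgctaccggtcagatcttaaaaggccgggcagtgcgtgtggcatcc
Ogdh: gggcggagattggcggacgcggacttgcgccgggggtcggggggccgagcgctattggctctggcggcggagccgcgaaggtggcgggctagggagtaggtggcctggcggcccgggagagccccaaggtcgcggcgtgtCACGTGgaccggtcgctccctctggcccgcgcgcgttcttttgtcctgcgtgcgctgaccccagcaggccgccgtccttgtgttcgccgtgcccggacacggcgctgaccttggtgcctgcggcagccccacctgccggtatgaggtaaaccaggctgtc
Tkt: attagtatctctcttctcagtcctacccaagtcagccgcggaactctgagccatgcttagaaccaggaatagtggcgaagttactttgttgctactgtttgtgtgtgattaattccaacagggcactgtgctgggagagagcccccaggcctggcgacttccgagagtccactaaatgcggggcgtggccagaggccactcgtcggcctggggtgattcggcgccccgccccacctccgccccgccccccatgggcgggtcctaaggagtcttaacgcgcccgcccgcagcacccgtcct
Taldo1: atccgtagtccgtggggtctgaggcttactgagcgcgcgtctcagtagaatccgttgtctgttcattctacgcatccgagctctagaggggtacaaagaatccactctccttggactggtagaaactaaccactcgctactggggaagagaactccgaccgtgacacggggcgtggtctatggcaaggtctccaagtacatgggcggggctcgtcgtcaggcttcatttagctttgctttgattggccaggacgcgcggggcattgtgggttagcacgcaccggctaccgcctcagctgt
In Ldha the first letter of the motif lies at -145 and at -48 from the start site, in Pfkfb3 at -53 and in Ogdh at -110. Windows were at hand for 29 of the 31 genes, 46 windows in all, and 6 of the 46 (13.0%) held a CACGTG, against 2349 of 32851 windows of all genes (7.15%). The other 3 of the 6 were a pair of overlapping Ogdh windows and a Pfkm window with the motif at -136. The Ogdh pair holds 1 and the same CACGTG, at -141 and -162 from their own start sites. The windows with the motif belong to Ldha, Pfkfb3, Ogdh and Pfkm alone, so the 2 shares count windows, not separate motifs or genes. A match says only that these letters are there.

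Depth was 4980153 to 46274478 RNA counts per BAT library, and 1301518 to 6481177 per WAT library. The 6 brown adipocyte markers summed to 7763 to 17364 CPM (counts scaled to library size, with TMM factors over all 35 RNA libraries) in BAT and to 99.1 to 1478 CPM in WAT, so the depots matched their labels. The 6 general adipocyte markers summed to 27080.0 to 65985 CPM in BAT and 9192 to 74944 CPM in WAT. The share of counts at ribosomal RNA loci lay between 0.813% and 4.64% in BAT and between 5.26% and 66.0% in WAT, with the highest shares in WAT ZT5 replicate 3 (66.0%), ZT9 replicate 3 (60.7%) and ZT17 replicate 2 (53.0%). In BAT the highest were ZT21 replicate 2 (4.64%), ZT13 replicate 3 (3.98%), ZT9 replicate 3 (3.75%) and ZT9 replicate 2 (3.65%). These BAT libraries had Sucla2 at 5338 to 6610 CPM and Gapdh at 27.0 to 46.1 CPM, against BAT medians of 4089.5 and 73.4 CPM. The part of this share in the daily courses in BAT was not tested. ATAC libraries held 3959384 to 12811242 tags in peaks in BAT and 1623006 to 5294923 in WAT. The skeletal muscle markers were highest in BAT ZT13 replicate 3 (1272 CPM), BAT ZT21 replicate 2 (554 CPM) and WAT ZT9 replicate 3 (659 CPM).

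Per transcript length, in the authors' deposited TPM, the pentose phosphate gene Taldo1 had the highest median of the 31 genes in both depots, with 1981 TPM in BAT and 946 TPM in WAT. In BAT it was followed by Ldhb (1807 TPM), Sucla2 (1498 TPM), Tkt (1429 TPM) and Mdh2 (849 TPM). In WAT it was followed by Tkt (602 TPM), Ldha (235 TPM), Sucla2 (174 TPM) and Aldoa (146 TPM). Ranges over libraries overlapped between each neighbouring pair of these genes, so the order is that of the medians alone. At the low end, Slc2a1 had a median of 0.1 TPM in BAT and 0.51 TPM in WAT over the 16 BAT and 13 WAT libraries with a value. This left out 1 BAT and 5 WAT libraries. No count of Slc2a1 was found in BAT ZT9 replicate 3, WAT ZT13 replicates 1 and 3, WAT ZT17 replicate 3 and WAT ZT21 replicates 1 and 3. If these were the libraries left out, the medians are too high. Hk1 had 0.4 TPM in BAT and 2.77 TPM in WAT. The other listed members of these families, Slc2a4 and Hk2, had 13.2 and 97.2 TPM in BAT and 13.0 and 80.6 TPM in WAT.

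Isozymes of the same step stood in different proportions. Of the TPM of the lactate dehydrogenase pair, Ldhb, the H subunit found in oxidative tissues, held a median share of 75.1% in BAT (lowest to highest library 54.8% to 80.9%) and 32.6% in WAT (range 15.7% to 62.6%). Ldha, the M subunit, therefore held most of the pair in the median WAT library and the smaller share in every BAT library. In CPM, which is not scaled to transcript length, the order of the medians in BAT was the reverse, with 1072 for Ldha and 825 for Ldhb. Which of the pair is larger in BAT thus depends on the measure. Of the phosphofructokinases, Pfkp, the platelet form, held 6.98% in BAT (lowest to highest library 4.66% to 10.6%) and 27.0% in WAT (range 8.84% to 47.6%), and Pfkl, the liver form, was the largest by median in both depots (59.2% in BAT, 49.4% in WAT). Hk2 held 99.5% of the hexokinase pair in BAT (lowest to highest library 99.2% to 99.8%) and 97.0% in WAT (range 79.6% to 99.9%). These shares are descriptions within each depot's own table.

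**Figure D1:**
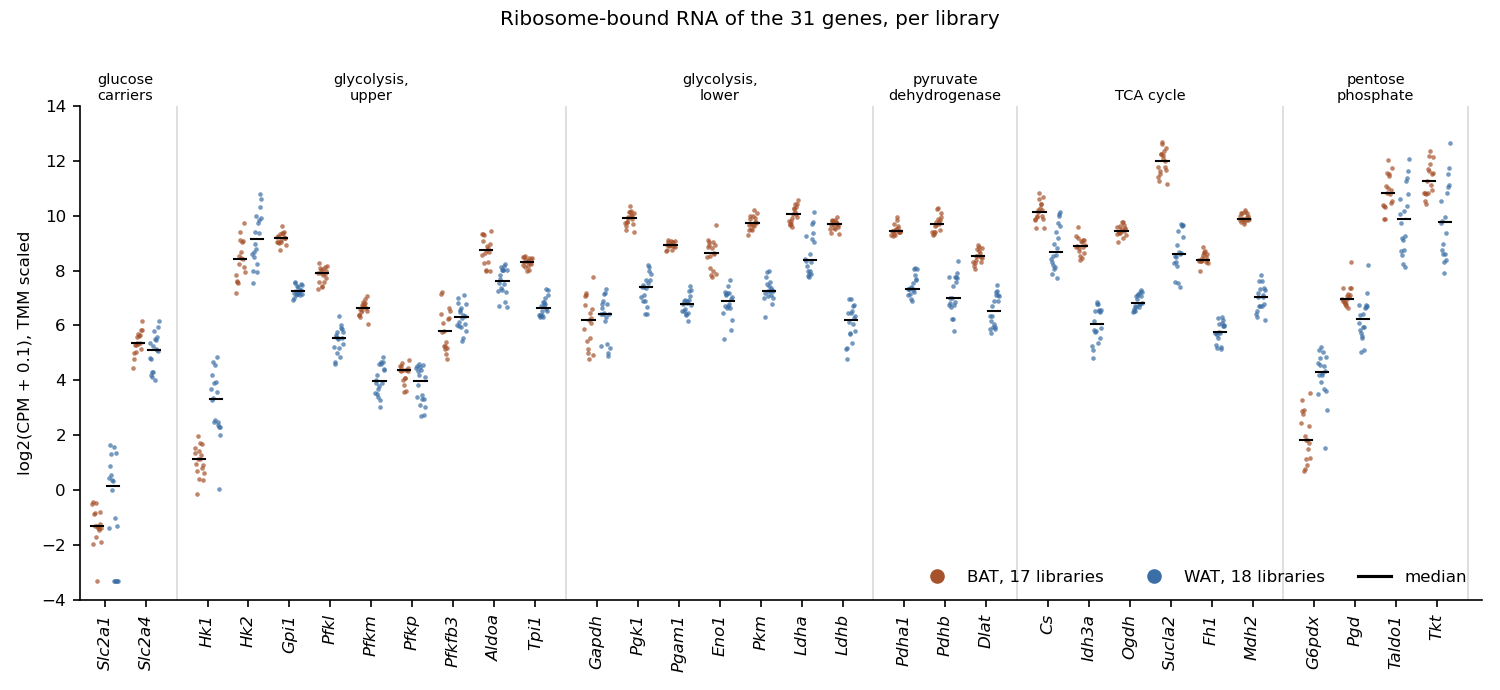
Level of each of the 31 genes in log2(CPM + 0.1) on the y axis, 1 point per library, BAT (brown points) left of WAT (blue points) for each gene, with black bars at the medians and genes grouped by step. TCA cycle and lower glycolysis genes lie higher in BAT except Gapdh, Hk1 and G6pdx lie lower in BAT, and Tkt runs from 241 to 6532 CPM in WAT; points at the bottom for Slc2a1 are libraries with no count.

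RNA of all 6 TCA cycle genes, all 3 pyruvate dehydrogenase subunits, 6 of 7 lower glycolysis genes and 5 of 9 upper glycolysis genes was higher in BAT than in WAT, while RNA of Hk1 and G6pdx was lower. Slc2a1 did not pass the filter on low counts. Of the 30 genes tested, 23 were called (edgeR adjusted p under 0.05 and a fold of at least 2), 21 higher and 2 lower in BAT, against 47.3% of all 10999 genes tested (23.1% higher and 24.2% lower). The median log2 difference was 1.87 over the 30 genes and 0.04 over all genes. In 17 of the 31 genes every BAT library lay above every WAT library, as in 11.3% of all genes tested, and in none below, as in 6.51%. In bulk samples a smaller number of cells of a type and less RNA per cell cannot be told apart.

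All 6 TCA cycle genes rose in BAT. Sucla2, the ADP-linked subunit of succinyl-CoA ligase, had 2313 CPM in the lowest, 4089.5 in the median and 6609.8 in the highest BAT library, against 169, 392 and 830.0 CPM in WAT. The groups did not overlap, and the log2 difference was 3.24 ± 0.21 (SE; edgeR adjusted p = 3.06e-16). Mdh2, mitochondrial malate dehydrogenase, had 834, 955 and 1185 CPM in BAT libraries, against 73.2, 131 and 230.2 CPM in WAT. It too had no overlap, with a difference of 2.92 ± 0.12 (adjusted p = 4.54e-21). Idh3a, the catalytic subunit of NAD-dependent isocitrate dehydrogenase, Fh1, fumarate hydratase, and Ogdh, the first enzyme of the oxoglutarate dehydrogenase complex, followed with differences of 2.86 ± 0.17, 2.69 ± 0.11 and 2.60 ± 0.10. Cs, citrate synthase, which makes the citrate that can also leave for lipid synthesis, differed least, by 1.28 ± 0.18 (adjusted p = 1.04e-07). Its 751, 1141 and 1834 CPM in BAT overlapped the 214, 416 and 1127 CPM in WAT.

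The 3 subunits of pyruvate dehydrogenase rose together in BAT with no overlap in any of them. Pdhb, the E1 beta subunit, had 625, 829 and 1241 CPM in BAT libraries, against 56.2, 129 and 329.7 CPM in WAT, differing on the log2 scale by 2.56 ± 0.17 (adjusted p = 3.02e-16). Pdha1, the E1 alpha subunit that carries the regulatory phosphorylation sites, differed by 2.05 ± 0.10, and Dlat, the E2 acetyltransferase, by 1.97 ± 0.13.

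In lower glycolysis 6 of 7 genes rose in BAT. Ldhb had the largest difference of the 30, with 651, 825 and 1002 CPM in BAT libraries, against 27.3, 73.6 and 126 CPM in WAT. The lowest BAT library stood above the highest WAT library, and the log2 difference was 3.57 ± 0.15 (adjusted p = 2.74e-21). Pgk1, which makes the first ATP of the pathway, differed by 2.56 ± 0.15, Pkm, pyruvate kinase, by 2.47 ± 0.11, Pgam1, phosphoglycerate mutase, by 2.15 ± 0.10 and Eno1, enolase, by 1.83 ± 0.18. Ldha differed by 1.41 ± 0.16 (adjusted p = 4.99e-10), with 777, 1072 and 1520.4 CPM in BAT overlapping 219.7, 332 and 1141 CPM in WAT. Gapdh did not pass: it had 27.0, 73.4 and 216 CPM in BAT and 29.3, 85.5 and 163 CPM in WAT, a difference of -0.11 ± 0.27 (adjusted p = 0.718). Gapdh, Eno1, Pgk1, Pgam1 and, in upper glycolysis, Aldoa have near-identical copies in the annotation, and the counting could split reads among them, so their levels are uncertain.

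Upper glycolysis was split. Pfkm, the muscle form of phosphofructokinase, had 66.8, 99.5 and 134 CPM in BAT libraries, against 8.08, 15.5 and 29.0 CPM in WAT, without overlap, and differed on the log2 scale by 2.58 ± 0.14 (adjusted p = 1.17e-18). Pfkl differed by 2.39 ± 0.12, Gpi1, glucose phosphate isomerase, by 1.92 ± 0.09, Tpi1, triose phosphate isomerase, by 1.62 ± 0.10 and Aldoa, aldolase, by 1.15 ± 0.16. Hk1, a hexokinase of general use, fell in BAT: 0.811, 2.10 and 3.85 CPM, against 0.925, 9.85 and 28.4 CPM in WAT, overlapping at the low end, by 2.32 on the log2 scale (-2.32 ± 0.26, adjusted p = 6.03e-10). Hk2, the insulin-responsive hexokinase, had 145, 347 and 863 CPM in BAT and 189, 581 and 1780.5 CPM in WAT, a difference of -0.77 ± 0.19 (adjusted p = 0.000555) that was under the fold asked for. Pfkp (0.32 ± 0.16), Pfkfb3, which makes the activator fructose 2,6-bisphosphate (-0.43 ± 0.17), and the insulin-responsive carrier Slc2a4 (0.30 ± 0.15) were not called either.

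In the pentose phosphate pathway 1 gene fell, 1 rose and 2 were not called. G6pdx, glucose 6-phosphate dehydrogenase and the first NADPH-making step, had 1.5, 3.43 and 11.6 CPM in BAT libraries, against 2.78, 19.7 and 36.7 CPM in WAT, and fell by 2.22 on the log2 scale (-2.22 ± 0.27, adjusted p = 3.06e-09). Tkt, transketolase, had 1365, 2471 and 5234 CPM in BAT libraries, against 241, 869 and 6532 CPM in WAT. It rose by 1.46 ± 0.31 (adjusted p = 7.04e-05), but the ranges overlapped, and 1 WAT library, ZT21 replicate 3, exceeded the highest BAT library. The gap varied with time. At ZT5 libraries had 1767, 1365 and 2471 CPM in BAT and 431, 389 and 499 CPM in WAT. At ZT21 they had 1964, 4519 and 3017 CPM in BAT and 3394, 2257 and 6532 CPM in WAT. Pgd, the second NADPH-making step, differed by 0.81 ± 0.14 and Taldo1, transaldolase, by 1.00 ± 0.29, just short of the fold asked for.

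**Figure D2:**
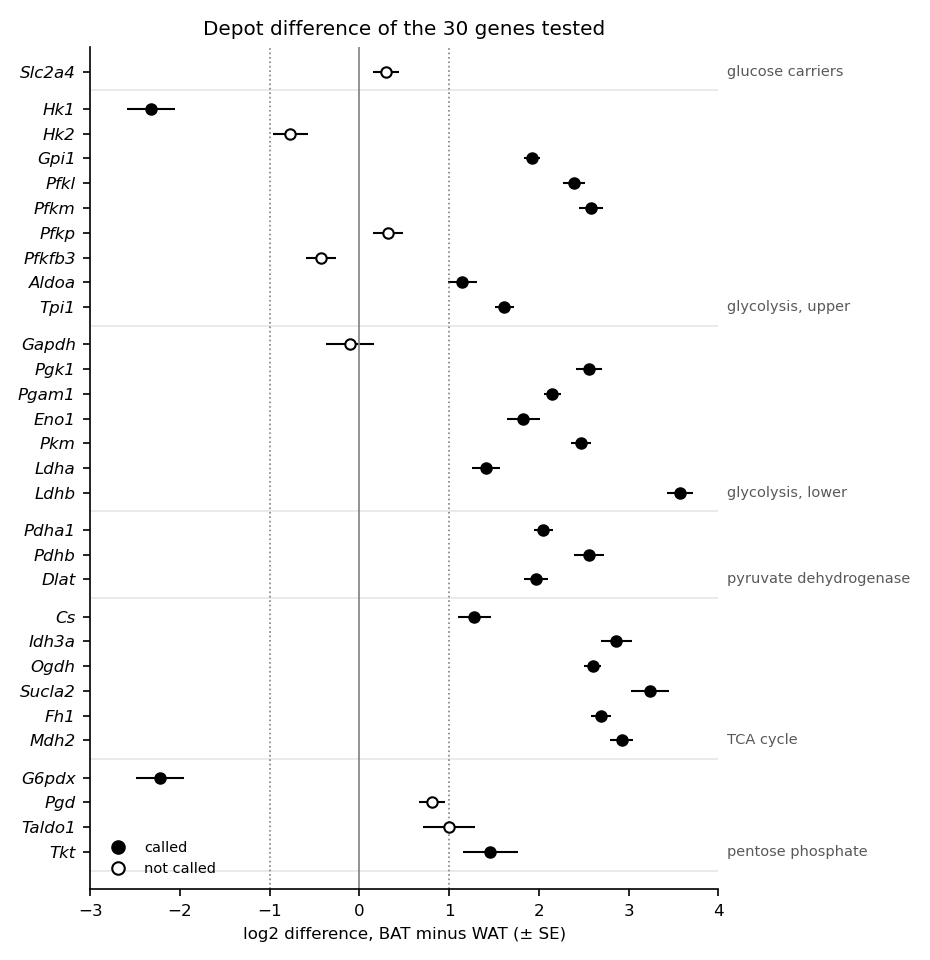
Log2 difference of RNA, BAT minus WAT, for the 30 genes tested (x axis; bars are standard errors), ordered down the page by step of the pathway; filled points are called, open points are not, and dotted lines mark a fold of 2. The 6 TCA cycle genes and 3 pyruvate dehydrogenase genes all lie to the right of the line at 1, while Hk1 and G6pdx lie to the left of -1.

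Each of the 23 calls was also made under all 7 alternative fits that kept the fold and in each of the 35 fits that left out 1 library. Of 61 further genes of these pathways, 49 were tested and 32 were called, 31 higher and 1 lower in BAT, with a median log2 difference of 1.71. Of all genes tested, 47.3% were called, 23.1% higher and 24.2% lower. The largest was Fbp2, the muscle form of fructose bisphosphatase, at 5.95 ± 0.37, and other large ones were those of Pdk4, a kinase that switches pyruvate dehydrogenase off, at 3.27 ± 0.23, and the succinate dehydrogenase subunits Sdhb (3.21 ± 0.14) and Sdhd (3.04 ± 0.14). The one lower was Slc2a3, a high-affinity glucose carrier, at -1.72 ± 0.31 (adjusted p = 4.8e-06). All 11 further TCA cycle genes and 8 of 10 genes that control or complete pyruvate dehydrogenase were higher in BAT.

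Markers of other cell types moved with depot, as did the share of counts from mitochondrial genes, 0.126% to 2.25% in BAT and 0.685% to 27.6% in WAT. The 5 macrophage markers summed to 7.02 to 12.1 CPM in BAT and 18.5 to 185 CPM in WAT, the 6 fibroblast markers to 8.15 to 67.4 CPM in BAT and 127 to 1103 CPM in WAT, and the 5 endothelial markers to 2.13 to 30.0 CPM in BAT and 3.08 to 87.8 CPM in WAT. The 6 lymphocyte markers summed to at most 0.208 CPM in BAT and 47.6 CPM in WAT. The 11 skeletal muscle markers summed to 39.7 to 1272 CPM in BAT and 8.10 to 659 CPM in WAT, and 6 of the 10 tested were called, all higher in BAT. Their part in the differences of Hk1, G6pdx, Slc2a3, Pfkm and Fbp2 was not tested. Without the 3 libraries highest in muscle markers, a check chosen after seeing the data, all 23 calls were made again.

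Over the day in BAT, Pfkfb3 had the clearest rhythm. It had 85.8, 141 and 147 CPM at ZT1, 53.9, 68.5 and 37.6 at ZT5, 55.8, 38.0 and 35.7 at ZT9, 30.7, 42.2 and 27.4 at ZT13, 36.1 and 75.7 at ZT17 and 99.7, 77.2 and 91.9 at ZT21. Every ZT21 and ZT1 library lay above every ZT5, ZT9, ZT13 and ZT17 library. A fitted 24 h cosine gave a peak-to-trough log2 difference of 1.75 ± 0.25 (SE) with its peak at ZT23.7 (edgeR adjusted p = 0.00179), and every alternative fit and every fit without 1 library called it.

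Pgk1, Pfkp and Pgd were the other 3 genes called in BAT, 4 of the 30 tested in all, against 9.17% of all 12394 genes tested. A called peak between ZT12 and ZT24 was found for 3 of the 30, against 4.11% of all genes. The median peak-to-trough difference of the 30 was 0.54, against 0.49 over all genes. Pfkp had 22.6, 20.8 and 20.3 CPM at ZT1, 16.0, 14.3 and 11.8 at ZT9 and 21.9, 19.97 and 26.6 at ZT21, a fitted difference of 0.68 ± 0.17 with its peak at ZT23.5 (adjusted p = 0.0391). Pgd peaked at ZT20.2 with 0.79 ± 0.20 (adjusted p = 0.0435). It had 126, 118 and 166 CPM at ZT1, 133 and 165 at ZT17 and 139, 164 and 315 at ZT21, so only ZT21 replicate 3 stood out. Pgk1 peaked at ZT11.6 with 0.51 ± 0.12 (adjusted p = 0.0377), about opposite to Pfkfb3. Adipocyte markers were called rhythmic in BAT too, Adipoq (peak ZT1.61), Cidec (ZT16.9) and Lipe (ZT13.5) of the 6 general ones and Cidea and Cox8b of the brown ones, and their part was not tested. The calls of Pgk1, Pfkp and Pgd depended on single libraries: Pfkp was lost in 11, Pgk1 in 12 and Pgd in 13 of the 17 fits that left out 1 library. The number of the 30 genes called was 1 without BAT ZT1 replicate 2, ZT9 replicate 2, ZT9 replicate 3, ZT13 replicate 1, ZT13 replicate 2, ZT13 replicate 3, ZT17 replicate 2 or ZT21 replicate 3, 2 without ZT1 replicate 1, ZT1 replicate 3, ZT9 replicate 1 or ZT21 replicate 1, and 16 without ZT21 replicate 2.

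In WAT the 2 largest fitted daily ranges were those of Tkt and Taldo1. Tkt had 847, 1494 and 891 CPM at ZT1, 431, 389 and 499 at ZT5, 319, 241 and 989 at ZT9, 388, 332 and 655 at ZT13, 1841, 2107 and 2929 at ZT17 and 3394, 2257 and 6532 at ZT21. All 6 libraries of ZT17 and ZT21 lay above all 12 of the other times. The fitted peak-to-trough log2 difference was 3.32 ± 0.46, a fold of 9.97, with the peak at ZT20.1 (edgeR adjusted p = 0.000813).

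Taldo1, the partner of transketolase in the non-oxidative branch, had 423, 385 and 584 CPM at ZT5, 432, 279 and 619.5 at ZT13 and 3218, 1786 and 4338 at ZT21. Its fitted difference was 2.71 ± 0.45 with the same peak time, ZT20.1 (adjusted p = 0.00354). Pgd had 57.3, 53.2 and 32.9 CPM at ZT5 and 147, 105 and 293 at ZT21, with 1.93 ± 0.31 and a peak at ZT20.3 (adjusted p = 0.00282). Thus 3 of the 4 pentose phosphate genes were called, while G6pdx, at 2.78 to 36.7 CPM in WAT, was not.

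Ldha was the one glycolytic gene called in WAT. It had 339, 611 and 325 CPM at ZT1, 287, 225 and 253 at ZT5, 219.7, 234 and 391 at ZT9, 255, 236 and 319.6 at ZT13, 826, 573 and 663 at ZT17 and 868, 534 and 1141 at ZT21. Libraries of ZT17 and ZT21 lay above those of ZT5, ZT9 and ZT13, and a single ZT1 library reached into their range. The fit gave 1.92 ± 0.32 with a peak at ZT19.98 (adjusted p = 0.00338).

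Of the genes that carry pyruvate into the TCA cycle, Pdhb (1.49 ± 0.31, peak ZT20.6, adjusted p = 0.0127), Pdha1 (0.96 ± 0.23, peak ZT18.9, adjusted p = 0.0272) and Cs (1.49 ± 0.37, peak ZT18.9, adjusted p = 0.0324) were called in WAT. In all, 7 of the 30 genes tested were called, against 9.9% of all 12703 genes, and all 7 peaked between ZT18.9 and ZT20.6, while 7.04% of all genes were called with a peak between ZT12 and ZT24. The median fitted difference of the 30 was 0.90, against 0.98 over all genes. Tkt, Taldo1, Pgd and Ldha were called in every fit. Pdhb was lost without WAT ZT9 replicate 2 (adjusted p up to 0.051), Pdha1 in 8 and Cs in 12 of the 18 fits without 1 library. The count was 4 without WAT ZT9 replicate 2, 13 without WAT ZT9 replicate 3 and 15 without the 3 libraries rich in ribosomal RNA.

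**Figure D3:**
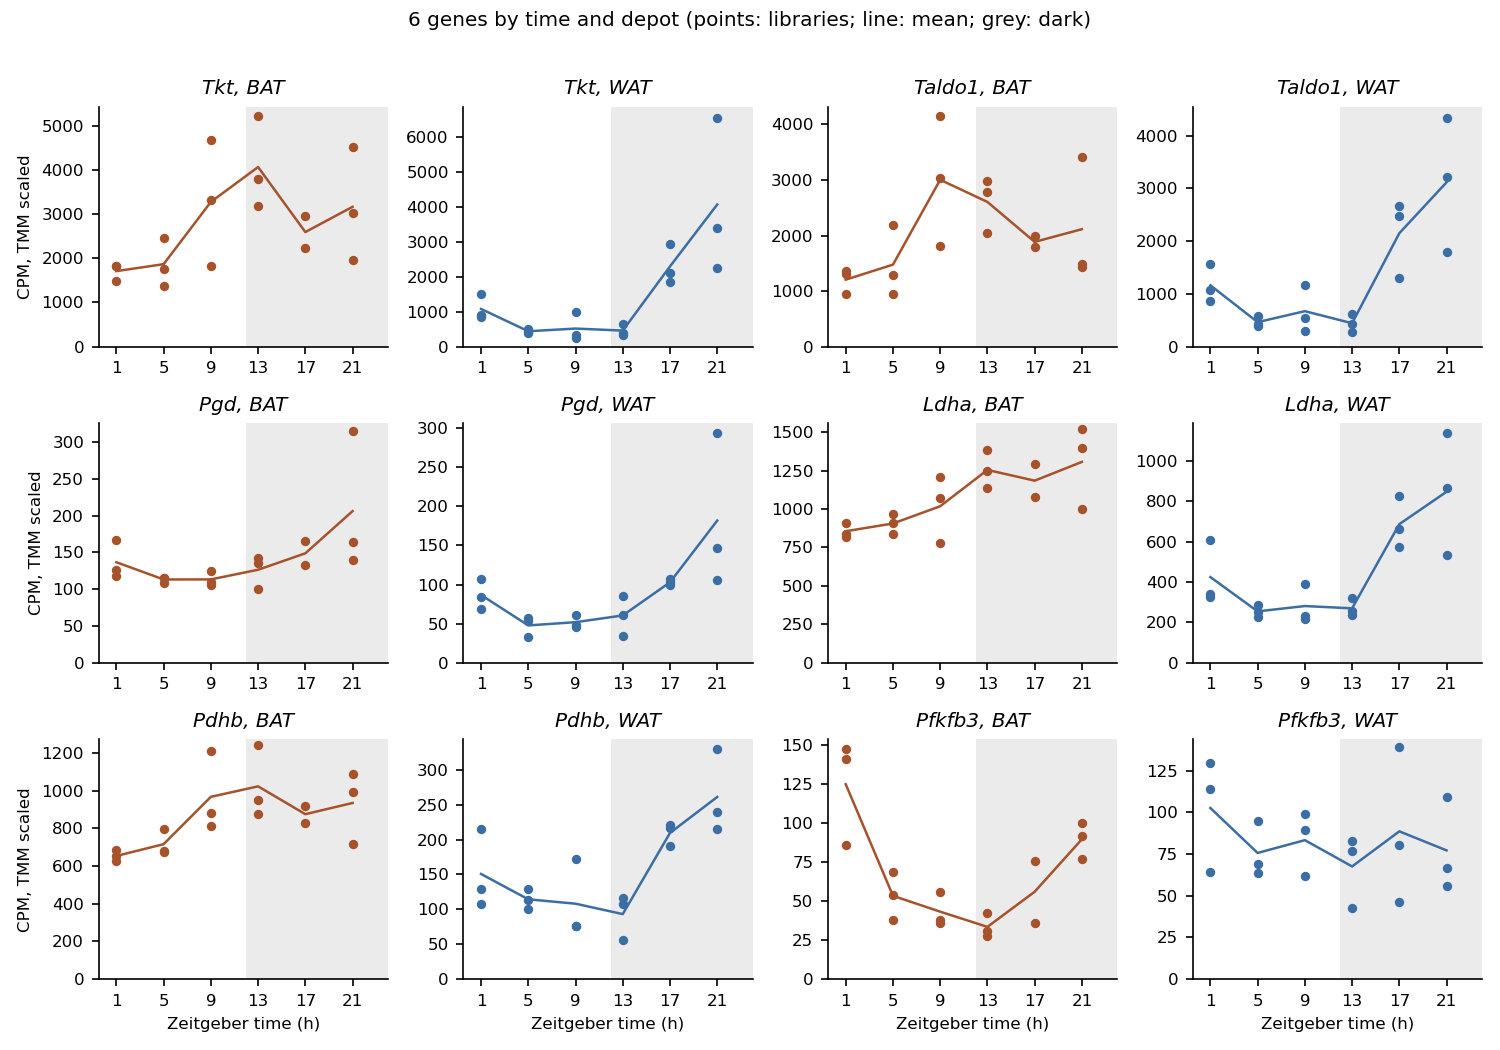
CPM (y axis, from 0, its own scale in each panel) against Zeitgeber time (x axis) for Tkt, Taldo1, Pgd, Ldha, Pdhb and Pfkfb3, each with BAT left of WAT; points are libraries, lines join the means and grey marks the dark phase. Tkt, Taldo1, Ldha and Pdhb in WAT are low from ZT5 to ZT13 and high at ZT17 and ZT21, while Pfkfb3 in BAT is lowest at ZT13 and highest at ZT1.

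Adipocyte and stromal markers moved with time in WAT as well. The 6 adipocyte markers summed to a median of 31023 CPM at ZT1, 12061 at ZT5, 21506 at ZT9, 13776 at ZT13, 66956 at ZT17 and 72136 at ZT21. The 6 fibroblast markers summed to medians of 971, 556, 564, 569, 217 and 436 CPM at the same times, and the 6 lymphocyte markers to 25.7, 43.4, 38.2, 15.3, 7.0 and 7.54 CPM. The 5 white adipocyte markers summed to medians of 2573, 2496, 3060, 2203, 7819 and 7098 CPM. Called rhythmic in WAT were 2 of these 5, Retn (peak ZT20.3) and Hoxc9 (peak ZT17.97), and the lymphocyte marker Ms4a1 (peak ZT6.57), and none of the 6 general adipocyte or 6 fibroblast markers. At an unadjusted edgeR p under 0.05 were 4 of the 6 general adipocyte and 4 of the 6 fibroblast markers. All 6 general adipocyte markers had a fitted peak between ZT12 and ZT24, and no fibroblast marker did. Mitochondrial genes took 0.685% to 9.43% of counts in the 6 WAT libraries of ZT17 and ZT21, and 2.52% to 27.6% in the 12 of the other times. The part of these shifts in the rhythms of Tkt, Taldo1, Pgd, Ldha, Pdhb, Pdha1 and Cs was not tested.

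Other genes of these pathways were called in WAT too. Of 61, 52 were tested and 8 were called, against 9.9% of all genes. Their peaks ran from ZT18.5 to ZT21.5: Me1, cytosolic malic enzyme and an NADPH source (2.95 ± 0.42), Pcx, pyruvate carboxylase (1.69 ± 0.28), Rpia (1.53 ± 0.28) and Pgls (1.73 ± 0.35) of the pentose phosphate pathway, Idh1, cytosolic isocitrate dehydrogenase (1.39 ± 0.27), Slc25a1, the citrate exporter (1.38 ± 0.28), Pdhx (1.68 ± 0.36) and Suclg2 (1.18 ± 0.27). In BAT 7 of 53 were called, against 9.17% of all genes. Slc16a1, a lactate and pyruvate carrier, peaked at ZT0.6 (1.09 ± 0.20), Myc at ZT4.5 (1.35 ± 0.30) and Pdk4 at ZT3.2 (1.51 ± 0.37). Acly, which splits exported citrate, peaked at ZT19.7 (1.87 ± 0.46) and Slc25a1 at ZT20.2 (1.04 ± 0.24), and Mdh1 and Idh3g peaked at ZT11.8 and ZT11.0.

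Whether the daily course differed between depots was tested with terms that let cosine and sine differ by depot. It was called for 8 of the 30 genes, against 12.9% of all 10999 genes tested. For Tkt the curve of BAT minus WAT had a log2 amplitude of 1.67 ± 0.28 (edgeR adjusted p = 0.00511), with a fitted peak at ZT14.3 and a peak-to-trough difference of 1.14 in BAT, and a peak at ZT20.1 and 3.20 in WAT. For Taldo1 it was 1.54 ± 0.28 (adjusted p = 0.00651), with a peak at ZT13.0 in BAT and ZT20.1 in WAT. No rhythm of Tkt, Taldo1, Ldha or Pdhb was called in BAT, so their fitted BAT peak times are uncertain. Ldha (0.76 ± 0.18; ZT16.4 in BAT, ZT19.98 in WAT) and Pdhb (0.78 ± 0.18; ZT14.2 in BAT, ZT20.7 in WAT) were called in every alternative and every fit without 1 library, as were Tkt and Taldo1.

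Cs, Gapdh, Pfkfb3 and Pgk1 also passed. Pfkfb3 differed by 0.72 ± 0.20 (adjusted p = 0.041), with a fitted peak-to-trough difference of 1.73 in BAT and 0.29 in WAT. Gapdh, whose counts are uncertain as said above, differed by 1.20 ± 0.33 (adjusted p = 0.0348), with fitted peaks at ZT23.0 in BAT and ZT9.1 in WAT. Cs (0.83 ± 0.23, adjusted p = 0.0347) peaked at ZT11.7 in BAT and ZT18.9 in WAT, and Pgk1 (0.60 ± 0.18, adjusted p = 0.0471) at ZT11.8 in BAT and ZT19.9 in WAT. Cs was not called rhythmic in BAT, Pfkfb3 and Pgk1 were not called in WAT, and Gapdh was called in neither depot. Their fitted peak times there are uncertain. Of the 35 fits without 1 library, Cs was lost in 8, Gapdh in 11, Pfkfb3 in 13 and Pgk1 in 26. The count was 5 without BAT ZT1 replicate 2, BAT ZT13 replicate 3 or BAT ZT21 replicate 3, 4 without BAT ZT9 replicate 2, BAT ZT9 replicate 3, BAT ZT21 replicate 1, WAT ZT9 replicate 2, WAT ZT21 replicate 1 or WAT ZT21 replicate 3, and 13 without WAT ZT9 replicate 3. Of the 6 general adipocyte markers, Fabp4 (1.26) and Plin1 (0.54) were called for this difference as well, and their part was not tested. For Pgd, with fitted peaks at ZT20.04 in BAT and ZT20.3 in WAT, no difference between depots passed (0.50 ± 0.18, adjusted p = 0.124). In BAT 1 library, ZT21 replicate 3, stood far above the rest for Pgd (315 CPM, against a median of 126). Of the further pathway genes 9 of 49 were called, against 12.9% of all genes. Among them were Pcx (0.77 ± 0.15), Pdhx (0.95 ± 0.21), Me1 (1.10 ± 0.26), Suclg2 (0.58 ± 0.14), Aco1, cytosolic aconitase (0.79 ± 0.19), Idh3b (0.79 ± 0.22), Pgls (0.86 ± 0.24) and Mdh1 (0.71 ± 0.20).

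**Figure D4:**
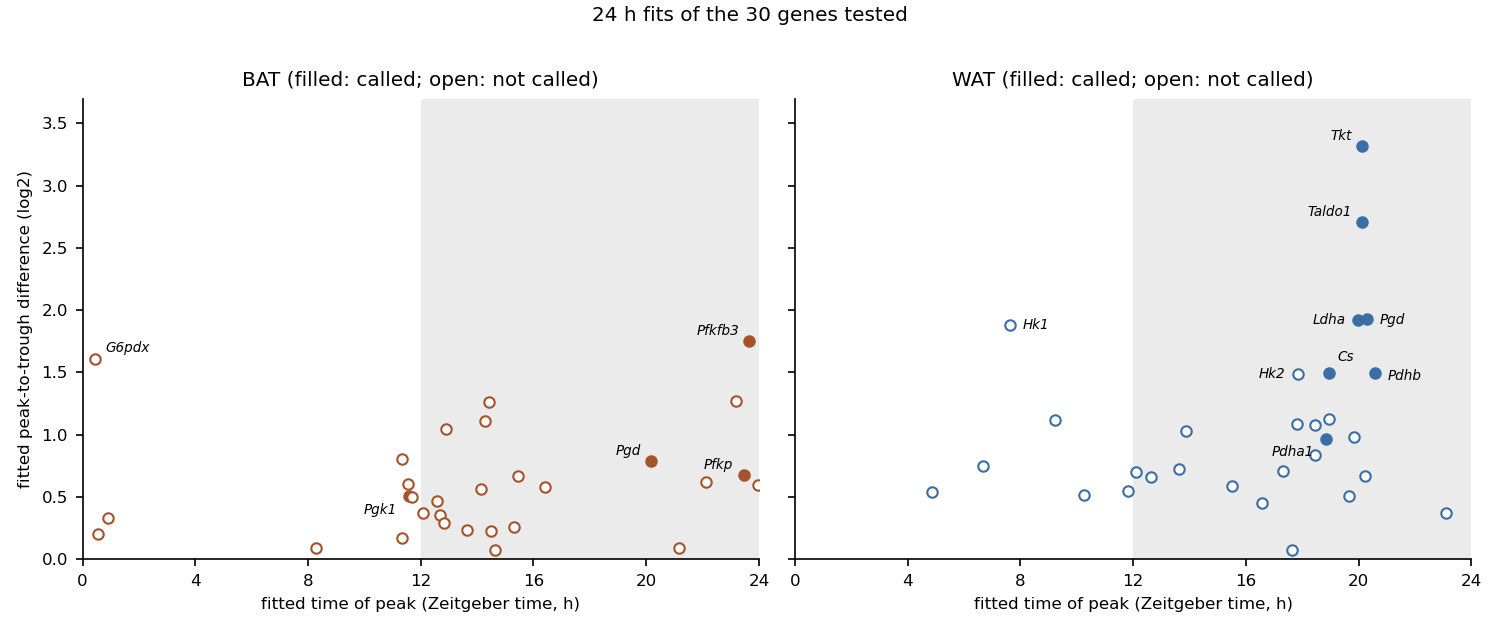
Fitted time of peak (x axis, Zeitgeber time) and fitted peak-to-trough log2 difference (y axis) of the 30 genes in BAT (left) and WAT (right); filled points are called rhythmic, open points are not, and grey marks the dark phase. The 7 genes called in WAT lie between ZT18.9 and ZT20.6, while the 4 called in BAT lie at ZT11.6, ZT20.2, ZT23.5 and ZT23.7.

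Dark against light, no gene of the 30 passed in BAT (edgeR adjusted p under 0.05; 7 at an unadjusted p under 0.05, 2 called by DESeq2), where 1.3% of all 12394 genes did (0.855% higher and 0.444% lower in the dark). The smallest p was that of Ldha, with 1000.4, 1269 and 1520.4 CPM in the dark (lowest, median and highest of 8 libraries) and 777, 909 and 1205 CPM in the light (9 libraries), a log2 difference of 0.42 ± 0.10 (adjusted p = 0.067). The 2 groups overlapped. The count was 2 without BAT ZT21 replicate 1.

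In WAT 8 of the 30 genes were higher in the dark and none was lower, against 7.5% of all 12703 genes called (4.34% higher and 3.16% lower). The median log2 difference was 0.44 over the 30 genes and -0.10 over all. Tkt had 332, 2107 and 6532 CPM in the dark (9 libraries) and 241, 499 and 1494 CPM in the light (9 libraries), a difference of 1.42 ± 0.29 (adjusted p = 0.0088). The groups overlapped, with the 3 ZT13 libraries inside the range of the light phase, and no gene of the whole table had every dark library above every light one.

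The other 7 were Taldo1 (1.06 ± 0.28), Hk2 (1.04 ± 0.26), Cs (0.91 ± 0.23), Ldha (0.84 ± 0.21), Pgd (0.84 ± 0.22), Dlat (0.72 ± 0.20) and Pdha1 (0.57 ± 0.16), with adjusted p from 0.0233 to 0.0335. Hk2 had 249.9, 926 and 1780.5 CPM in the dark and 189, 405 and 1018 CPM in the light, overlapping over most of the range. Each of these 7 was lost in 6 to 12 of the 18 fits without 1 library, and Tkt in none. The count was 1 without WAT ZT1 replicate 3, ZT9 replicate 1, ZT9 replicate 2, ZT13 replicate 3 or ZT17 replicate 3, 2 without ZT5 replicate 2, ZT17 replicate 1, ZT21 replicate 1 or ZT21 replicate 3, 3 without ZT5 replicate 1, 4 without ZT1 replicate 1 and 15 without ZT9 replicate 3. Fibroblast markers, 4 of 6 of which were called lower in the dark, summed to 127 to 639 CPM in the dark and 342 to 1103 CPM in the light. Adipocyte markers summed to 9867 to 74944 CPM in the dark and 9192 to 56722 CPM in the light. Of 52 cell type markers tested, 3 were called higher in the dark, Pparg, Hoxc8 and Hoxc9, and 7 lower. The part of these markers was not tested.

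Among the 52 further pathway genes tested in WAT, 5 were higher in the dark: Me1 (1.11 ± 0.25), Pcx (0.94 ± 0.17), Slc25a1 (0.93 ± 0.19), Pgls (0.88 ± 0.23) and Rpia (0.69 ± 0.18). Of all genes in WAT, 4.34% were called higher and 3.16% lower. Eno3, the muscle enolase, was lower (-1.63 ± 0.44, adjusted p = 0.0315), beside skeletal muscle markers that summed to 8.10 to 259 CPM in the dark and 28.3 to 659 CPM in the light. In BAT 2 of 53 were lower in the dark, Pdk4 (-0.98 ± 0.22) and Myc (-0.93 ± 0.20), against 0.444% of all genes.

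The authors' deposited table of JTK_CYCLE results gave a q-value under 0.05 to Pfkfb3 (0.0203) and Pgd (0.0283) in BAT and to Tkt (0.0331) in WAT. In the same table Ldha had 0.0504 in BAT and 0.0684 in WAT. The other genes called rhythmic here had larger q-values there. These were Pfkp (0.0993) and Pgk1 in BAT, and Pgd (0.0902), Pdhb (0.102), Cs (0.111), Taldo1 (0.111) and Pdha1 (0.192) in WAT. The share of all genes under 0.05 in the authors' results is not given here.

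Accessible regions were annotated to all 31 genes in BAT (133 of 42572 regions) and to 30 in WAT (83 of 25050). In BAT 23 of the 133 were called rhythmic, against 18.9% of all regions, and in WAT 17 of the 83, against 15.8%. Within 1 kb of a start site 4 of 43 regions were called in BAT, against 13.5% of all regions at that distance, and 2 of 38 in WAT, against 6.32%. Farther away 19 of 90 were called in BAT, against 21.2%, and 15 of 45 in WAT, against 23.0%. Pfkfb3 had the most regions in BAT, 18, of which 6 were called.

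At the Ldha promoter shown above, the WAT region chr7:46845681-46845831, which overlaps the BMAL1 peak, was called rhythmic. It had 31.6, 31.1 and 29.6 CPM at ZT1, 34.5, 34.1 and 31.6 at ZT5, 44.3, 41.3 and 42.9 at ZT9, 39.4, 42.5 and 50.8 at ZT13, 47.7, 48.4 and 46.6 at ZT17 and 37.8, 32.3 and 32.8 at ZT21. The libraries of ZT9, ZT13 and ZT17 lay above those of the other times. The fitted difference was 0.62 ± 0.10 with its peak at ZT13.7 (edgeR adjusted p = 0.000576), and an intronic Ldha region at chr7:46849416-46849566 had 0.98 ± 0.12 with its peak at ZT16.0 (adjusted p = 4.23e-05), against ZT19.98 for Ldha RNA in WAT. In BAT the matching promoter region had 0.19 ± 0.11 (adjusted p = 0.416), and the difference between depots was not tested.

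The second called region near a start site in WAT was at Tkt, chr14:30548172-30548322, with 0.48 ± 0.12 and a peak at ZT14.8 (adjusted p = 0.0208). At Taldo1 the promoter region was not called in WAT (0.15 ± 0.09, adjusted p = 0.437) or in BAT (0.09 ± 0.08, adjusted p = 0.604), and an intronic region at chr7:141394233-141394383 was called in WAT (0.61 ± 0.17, peak ZT18.7, adjusted p = 0.037). In BAT the Pfkfb3 promoter region chr2:11501991-11502141 peaked at ZT1.8 (0.32 ± 0.08, adjusted p = 0.0263), with 53.0, 62.1 and 59.4 CPM at ZT1 and 46.9, 44.5 and 47.5 CPM at ZT13. It was lost in 3 of the 18 fits without 1 library.

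Between depots, open chromatin at the genes was called different at 9 shared regions. Of 21636 regions shared by the 2 peak sets (overlap of at least 75 of 150 bp), 74 belonged to 30 of the genes, and 9 were called (edgeR adjusted p under 0.05 and a fold of at least 2), against 7.14% of all shared regions (3.58% higher and 3.56% lower in BAT). The median log2 difference was 0.16 over the 74 and -0.01 over all. Of the 9, 6 were higher in BAT. With an overlap of at least 140 bp asked for, 6 of the 9 regions remained, and all 6 were called. At the Ldhb promoter, chr6:142507953-142508103, BAT libraries had 74.8, 86.9 and 95.0 CPM (lowest, median and highest of 18) and WAT libraries 29.2, 41.7 and 48.4 CPM. They did not overlap, and the difference was 1.09 ± 0.04 (adjusted p = 6.81e-25).

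The region at -886 bp from the Tkt start site, chr14:30548170-30548320, had 74.4, 89.9 and 107 CPM in BAT and 33.0, 44.5 and 63.2 CPM in WAT, again without overlap (1.03 ± 0.04, adjusted p = 5.48e-23). A region at -860 bp from the start site of Dlat (1.34 ± 0.06) and one at -10210 bp from that of Eno1 (1.44 ± 0.08) were higher in BAT as well. Hk2, whose RNA was not called between depots, had 5 called regions: 2 in introns were higher in BAT (1.47 ± 0.06 and 1.36 ± 0.08), and 1 upstream and 2 in introns were lower (-1.17 ± 0.09, -1.04 ± 0.08 and -1.02 ± 0.09).

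BMAL1 peaks in inguinal WAT at ZT4 numbered 34 at 24 of the 31 genes, of 10368 peaks in all, in the authors' single peak set for the pooled ChIP libraries. Of the 30 genes tested in WAT RNA, 22 (73.3%) had a peak within 1 kb of a start site, against 41.3% of all 12693 such genes, and 24 (80.0%) had one at any distance, against 50.3%. This share was not compared at matched expression. Dlat, Fh1, Ldhb, Pfkm, Pfkp, Slc2a1 and Tpi1 had none.

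The highest scores, which are the authors' own, were at Pfkfb3. Its peak at chr2:11535454-11535666, in an intron, had a score of 42.6 (rank 31 of all peaks), a second intronic peak at chr2:11513194-11513406 had 37.7 (rank 44), and the peak over the promoter shown above, chr2:11501999-11502211, had 19.2. The median of all peaks was 6.16. Gpi1 (19.0, at -3873 bp), Ldha (17.8, over the promoter shown above, chr7:46845574-46845786) and Pfkl (16.4, 376 bp into the gene) were the other genes with a score over 10. At Ogdh the peak over the CACGTG shown above had a score of 7.53. Tkt had 5.48 at its promoter and 7.70 at -7291 bp, and Taldo1 had 8.73 at its promoter, against the median of 6.16.

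Set beside the RNA, Pfkfb3 had the highest BMAL1 scores and a called rhythm in BAT, where no BMAL1 ChIP was analysed here, but a fitted difference of only 0.29 in WAT. Of the 7 genes called rhythmic in WAT, Ldha had a score of 17.8 and the other 6 had scores of 4.11 to 8.73. With 2 ChIP libraries of 1 time point, no test of binding over the day was possible.

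**Figure D5:**
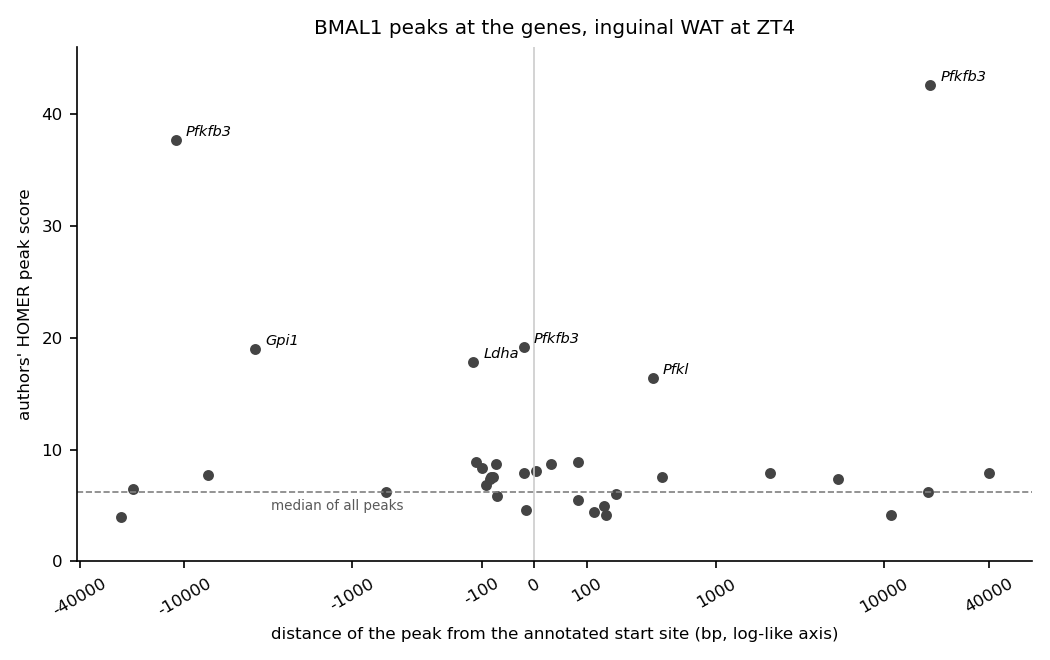
Authors' HOMER score (y axis) of the 34 BMAL1 peaks at the genes against distance from the annotated start site (x axis, base pairs, log-like scale on both sides of 0); the dashed line is the median of all peaks, 6.16. Pfkfb3 holds the 3 highest scores, 42.6, 37.7 and 19.2, and most other peaks lie near the start site with scores under 10.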

How the data were processed

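Ribosome-bound RNA was pulled down with an anti-GFP antibody and made into directional libraries, per the labels' protocols. The authors deposited RNA as RSEM's expected counts and as TPM; alignment with STAR 2.7.5 and counting with RSEM 1.3.0 to mm10 are named in the submitters' processing notes. They also deposited ATAC tag counts per 150 bp peak (HOMER), BMAL1 peaks with a HOMER score and log2 tag values, and JTK_CYCLE p-values and q-values. The genes and all lists were chosen with earlier results of these data known.

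Expected counts were rounded, filtered with filterByExpr, scaled by TMM and tested with edgeR 4.0.16 (quasi-likelihood, Benjamini-Hochberg over all features; R 4.3.3). Rhythm was a 24 h cosine and sine; depot calls needed an adjusted p under 0.05 and a fold of at least 2. Depth limits low genes most in WAT. The fits were tested on simulated data. Alternatives were DESeq2 1.42.0, its size factors, no count filter, the replicate number as a block, time as a factor, no mitochondrial and ribosomal loci, no libraries rich in ribosomal RNA, each library left out and, chosen after seeing the data, no libraries rich in muscle markers. All 31 genes could be named; of 61 further pathway genes, the up to 5 largest depot differences each way and up to 8 called genes per other comparison were named. Some items that this rule would name are not reported here. Of the columns, 1 matched no listed sample and was not used. Between times within a depot, libraries of the same replicate number had a median correlation of deviations of 0.069 in BAT and 0.028 in WAT. Whether BAT and WAT libraries of the same number and time came from 1 animal was not checked. The main fits over both depots did not pair them. The ChIP input was not used here.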

Additional observations from a re-analysis of the deposited data

Results flagged for a closer look

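A difference in daily course between BAT and WAT, tested as an interaction (edgeR, adjusted over all genes), was found for 8 of the 30 genes, against 12.9% of all 10999 genes tested. The curve of BAT minus WAT had a log2 amplitude of 1.67 for Tkt, 1.54 for Taldo1, 1.20 for Gapdh, 0.83 for Cs, 0.78 for Pdhb, 0.76 for Ldha, 0.72 for Pfkfb3 and 0.60 for Pgk1. The calls of Gapdh, Cs, Pfkfb3 and Pgk1 were lost in some fits without 1 library, as given above. Of the 6 general adipocyte markers, Fabp4 and Plin1 were called for the same difference and Adipoq, Cidec and Lipe for a rhythm in BAT, and summed adipocyte and fibroblast markers moved with time in WAT. Their part in these differences was not tested.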

How the results depend on the processing

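Direction was checked for the called genes and for a selection of the called regions, and none was reversed. For a rhythm this meant no large shift of its peak time. Of the fits without 1 library, only those with the lowest and highest adjusted p were checked. Fits with time as a factor give no direction. The count of the 30 genes called between depots, 23, was 23 to 24 without 1 library and 23 to 27 under the other alternatives. Rhythm in BAT (4 genes) gave 13 by DESeq2, 9 with no count filter, 2 with time as a factor, 13 without the muscle-rich libraries (chosen after seeing the data) and 1 to 16 without 1 library. Rhythm in WAT (7) gave 15 without the libraries rich in ribosomal RNA, 13 without the muscle-rich ones and 4 to 13 without 1 library. The depot difference in rhythm (8) gave 17, 16 and 4 to 13 under the same 3 changes, and dark against light in WAT (8) gave 15, 15 and 1 to 15. Dark against light in BAT (0) gave 2 by DESeq2, 4 with no filter, and 0 to 2 without 1 library. ATAC calls without 1 library ranged over 16 to 26 in BAT, 14 to 20 in WAT and 8 to 10 at shared regions. BMAL1 peaks (34) were 25 at or above the median score and 23 within 1 kb. The cause of these changes was not tested.

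With the replicate number as a block, rhythm gave 4 genes in BAT and 8 in WAT, the depot difference in rhythm 7, and dark against light 1 in BAT and 9 in WAT. Whether these numbers pair libraries of BAT and WAT is not known.

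Over all genes, depot calls (5204) were 11706 with no filter and 8272 with no fold. BAT rhythm (1136) gave 2465 by DESeq2, 1754 with no filter, 2321 without muscle-rich libraries, 617 with time as a factor and 460 to 3383 without 1 library. WAT rhythm (1257) gave 2106, 3046 and 2519 under the first 3 of these, 2689 without libraries rich in ribosomal RNA and 472 to 2519 without 1 library. The depot difference in rhythm (1418) gave 2690, 2156, 3100, 3641 and 571 to 3015 in that order. Dark against light gave 161 in BAT, 353 by DESeq2 and 471 with no filter; in WAT 953, and 1575, 1457, 2013, 2845 and 188 to 2013 in the order used for rhythm. Shared ATAC calls (1545) were 927 at an overlap of 140 bp.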
